A study of Mus musculus with 15 samples.

Results

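The genes that make and break down prostaglandins were followed in the hearts and livers of mice carrying a homozygous mutation of Abcb5, which encodes a membrane transporter of the ATP-binding cassette family, and of wild-type mice. They are 9 genes chosen by symbol: Ptgds, Hpgds, Ptgs1, Ptgs2, Ptges, Ptges2, Ptges3, Ptgis and Hpgd. Of the 9, 8 had a probe with that name, with 11 probes in all, out of 16593 genes named on the array. Ptgs1 had 0 named probes and was not analysed here. The set was put together after Ptgds had been seen to be higher in mutant hearts, so the heart differences of these genes are described without a test, and the liver differences are tested.

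The groups were 4 hearts of male homozygous ABCB5 mutant mice, 4 hearts of male wild-type mice, 3 livers of the mutant mice and 4 livers of the wild-type mice. All animals were 17 weeks old and of the strain given as C57BL/6J-Tyr. What the mutation does to the gene is not stated in the labels, and 0 probes carried the name Abcb5, so its level could not be used to check the genotypes. The arrays, one-colour Illumina bead arrays of whole-tissue RNA, were made from 8 animals. Both organs were taken from 7 of them, and a mutant gave its heart alone. Cardiomyocyte markers marked the hearts, with summed intensities of 97370.7 to 108884.7 in mutant hearts and 99608.8 to 174078.2 in wild-type hearts, and 0 of their 7 probed genes could be measured in liver. The brightest probe of wild-type heart 4 read 55709.9, against 23655.5 to 29793.5 on the other heart arrays. The upper end of the wild-type range may therefore rest on that array. Hepatocyte markers summed to 36925.2 to 39305.7 in mutant livers and 39336.7 to 42220.6 in wild-type livers, and to 29.1 to 39.8 in mutant hearts and 17.9 to 38.9 in wild-type hearts.

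Prostaglandins are short-lived lipid signals made from arachidonic acid. Phospholipases release the acid from membranes, the cyclooxygenases encoded by Ptgs1 and Ptgs2 turn it into prostaglandin H, and terminal synthases turn that into single products: prostaglandin D by Ptgds or Hpgds, prostaglandin E by Ptges, Ptges2 and Ptges3, and prostacyclin, which widens vessels and restrains platelets, by Ptgis. Hpgd encodes the dehydrogenase that inactivates prostaglandins. The product of Ptgds is a secreted lipocalin that also carries small lipophilic molecules, whereas that of Hpgds is a cytosolic enzyme of the glutathione transferase kind known from mast cells and other blood cells.

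The promoters of the 2 prostaglandin D synthases are shown because Ptgds separated the genotypes in heart and Hpgds did not. The sequences are those of RefSeq on build GRCm38.p6, 250 bases before to 50 after the annotated start, on the strand of the gene. They lie at chr2:25469700-25469999 (minus strand) for Ptgds and at chr6:65144681-65144980 (minus strand) for Hpgds. Capitals mark matches to the motifs searched.
Ptgds: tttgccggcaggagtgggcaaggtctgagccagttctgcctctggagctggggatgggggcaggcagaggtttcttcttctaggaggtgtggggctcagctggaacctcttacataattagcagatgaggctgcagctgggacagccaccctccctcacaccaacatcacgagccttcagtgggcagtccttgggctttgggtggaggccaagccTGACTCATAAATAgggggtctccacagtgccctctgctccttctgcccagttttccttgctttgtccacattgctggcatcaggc
Hpgds: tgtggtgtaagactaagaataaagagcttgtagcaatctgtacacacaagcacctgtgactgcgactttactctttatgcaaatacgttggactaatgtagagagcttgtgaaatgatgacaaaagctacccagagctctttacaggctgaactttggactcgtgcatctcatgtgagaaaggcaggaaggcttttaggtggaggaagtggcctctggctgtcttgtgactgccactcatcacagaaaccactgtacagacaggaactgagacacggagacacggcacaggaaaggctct

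The motifs searched on both strands were TATAAA and ATAAATA (forms of the TATA box), TGACTCA (AP-1), CACGTG (the E-box) and TGACGT (the core of the cyclic AMP response element). The Ptgds window held TGACTCA starting at position -35 and ATAAATA starting at position -29 from the start site, and these share a base. Among all 32851 promoter windows of this length, TGACTCA was found in 5.20% and ATAAATA in 5.60%. The Hpgds window held 0 of the 5 motifs. Of the other genes, the window of Ptgs2 held CACGTG (found in 7.15% of all windows) and TGACGT (7.51%), that of Ptges2 held CACGTG, and that of Hpgd held TATAAA (13.6%) just after the start. The windows of Ptgs1, Ptges and Ptges3 held none of the 5, and Ptgis is not in the table used. A match is a run of letters in this window and not a shown binding site.

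Levels are the authors' deposited linear intensities. Hearts and livers had been scaled separately: array medians were 113.105 to 113.112 in liver and 8.045 to 8.079 in heart. Genotypes are therefore compared within a tissue only, and the marker sums given above for both tissues serve only to check the tissue. Probes are ranked by level or summed only within a gene or a list, and such levels also depend on the probe. A value counted as above background when it exceeded the low values of its own array at p below 0.05. Probes above background on 3 or more arrays of an organ were tested there: 18514 in heart and 11823 in liver. Changes are on a log2 scale after background correction and an added offset of 16, which shrinks the changes of dim probes. The median change over all probes tested was 0.005 in heart and -0.003 in liver. An unadjusted limma p below 0.05 was found for 2912 of the 18514 heart probes and 1351 of the 11823 liver probes. Counts at that unadjusted threshold given below are to be read beside these.

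In the mutant hearts Ptgds was about 3 times as high as in wild type, with every mutant heart above every wild-type heart. Its intensity was 898.9, 850.5, 1129.9 and 1003 in mutant hearts, against 328.1, 280.9, 293.9 and 320.5 in wild-type hearts. The lowest mutant heart was 2.59 times the highest wild-type heart. Within a genotype the hearts differed little: the highest was 1.33 times the lowest among mutants and 1.17 times among wild types. The means were 970.6 ± 123.8 in mutant hearts and 305.9 ± 22.2 in wild-type hearts (SD, n = 4 each), and the log2 change was 1.60 ± 0.11 (SE), or 3.04-fold. Ranked by log2 change, Ptgds was number 6 from the top of the 18514 probes. Leaving out each heart in turn gave a change of 1.53 to 1.66. The RNA is that of the whole heart, so more cells of a kind that makes Ptgds and more Ptgds RNA per cell cannot be told apart.

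**Figure D1:**
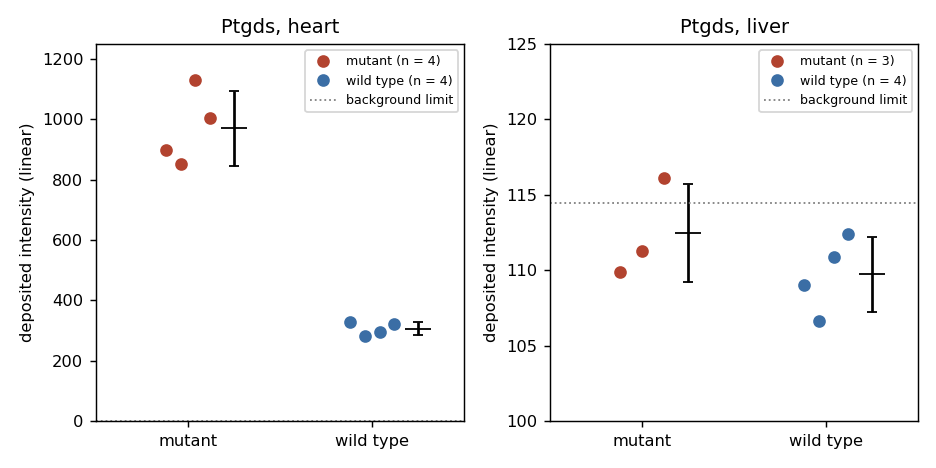
Deposited linear intensity of the Ptgds probe on each array (points), with the group mean and SD (bars), in heart (left) and liver (right, axis starting at 100). The 4 mutant hearts lie between 850.5 and 1129.9, all above the wild-type hearts, while in liver all arrays but mutant liver 3 lie under the background limit (dotted).

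In liver Ptgds was too dim to measure. It was above background on 1 of 7 arrays, mutant liver 3, with intensities of 109.9, 111.3 and 116.1 in mutant livers, against 109, 106.6, 110.9 and 112.4 in wild-type livers. The groups overlap and the probe was not tested, so a genotype difference of this gene was not detectable in liver.

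The other prostaglandin D synthase, Hpgds, did not separate the genotypes in heart. Its brighter probe was 1.8, 4.6, 7.5 and 3.5 in mutant hearts, against 1.8, 9.9, 4.9 and 11.3 in wild-type hearts, all above background but only just. The highest values were in wild-type hearts 2 and 4, the groups overlap, and the log2 change was -0.14 ± 0.13. Its second probe was at background on all 8 heart arrays. In liver its probes were above background on 1 and 0 of 7 arrays.

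Markers of mast cells, a known source of Hpgds, were read beside it. Of 7 mast-cell genes tested, 6 had negative changes, with a median log2 change of -0.26, and 1 probe of 10 passed the test, that of the protease Mcpt4. Of all heart probes 0.837% passed with the mutants lower. Mcpt4 fell by 0.74 ± 0.10 on the log2 scale (SE, n = 4 each, limma adjusted p = 0.00310), with intensities of 8.6 to 10.5 in mutant hearts and 23.3 to 36.1 in wild-type hearts. The summed level of the list was 188.8 to 255.6 in mutant hearts and 228.7 to 359.1 in wild-type hearts, so the sums overlap. Hdc, the brightest of the list and the 1 gene with a positive change (0.18), read 85.4 to 118 in mutant hearts and 57.2 to 128.9 in wild-type hearts. Ms4a2 was not above background on enough arrays to be tested. The part of these cells in the Hpgds values was not tested.

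Cyclooxygenase-2 was barely measurable in either tissue. The better Ptgs2 probe was above background in 3 of 4 mutant hearts and 2 of 4 wild-type hearts, with intensities of -0.2, 1.5, 6.2 and 3.5 in mutant hearts and 6.4, 2.8, -1 and 0.6 in wild-type hearts. The groups overlap fully, and the log2 change was 0.03 ± 0.12. The second Ptgs2 probe was at background on all 8 heart arrays. In liver the probes were above background on 2 and 0 of 7 arrays and were not tested.

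Of the prostaglandin E synthases, none separated the genotypes in heart. Ptges, the inducible membrane enzyme, had a brighter probe at 8.3, 9.3, 15.6 and 9.6 in mutant hearts, against 12, 12.5, 9.5 and 19.3 in wild-type hearts, a log2 change of -0.12 ± 0.12. Its dimmer probe was above background on 5 of 8 arrays and stood at -0.01 ± 0.11. Ptges2, the membrane-associated enzyme, was 119.7, 96.9, 126.5 and 112.6 in mutant hearts, against 132.1, 110.9, 111.3 and 110.7 in wild-type hearts. Wild-type heart 1 stood apart from its group, and the log2 change was -0.03 ± 0.10. Ptges3, which encodes the cytosolic synthase also known as the p23 co-chaperone of Hsp90, was 169.8, 134.3, 129.2 and 173.7 in mutant hearts, against 164.7, 141.1, 119.5 and 123.2 in wild-type hearts. Both genotypes held high and low hearts, and the log2 change was 0.13 ± 0.13.

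Prostacyclin synthase, Ptgis, was bright in every heart and somewhat higher in most mutant hearts. Its intensity was 654.1, 477.5, 607.2 and 604.3 in mutant hearts, against 462, 512.7, 449.3 and 463.2 in wild-type hearts. Mutant hearts 1, 3 and 4 lay above all wild-type hearts, but mutant heart 2 lay within their range. The means were 585.8 ± 75.7 in mutant hearts and 471.8 ± 28 in wild-type hearts (SD, n = 4 each), with a log2 change of 0.29 ± 0.11, the largest of the set after Ptgds, and without any one heart it was 0.24 to 0.39. For Hpgd, the inactivating dehydrogenase, intensities were 63.3, 39, 51.3 and 67.1 in mutant hearts, against 35.9, 48, 60.1 and 40.6 in wild-type hearts. These ranges overlap, and the log2 change was 0.19 ± 0.15.

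**Figure D2:**
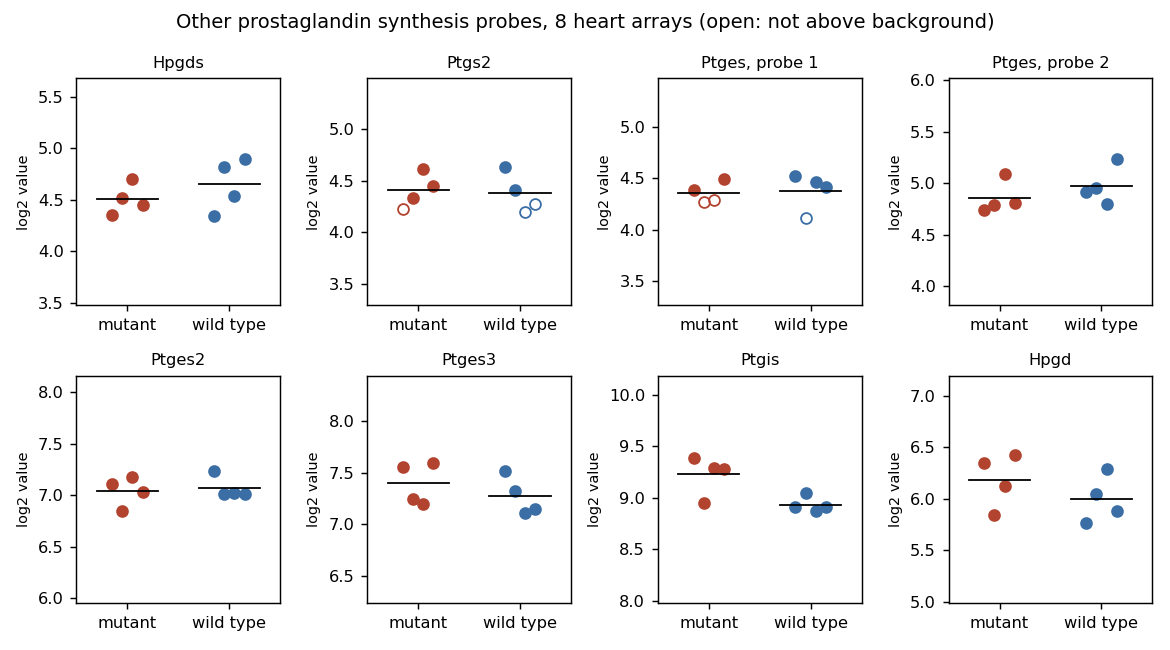
Log2 value (background-corrected, offset of 16) on each heart array for the 8 other tested probes of the set, mutant left and wild type right, with group means (lines) and values not above background as open points. Each panel spans the same number of log2 units, and in every panel the genotypes overlap.

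Across the set in heart, 9 of the 11 probes, of 8 genes, could be tested, and the remaining 2 were second probes of Hpgds and Ptgs2. The limma fit over all probes called 1 of the 9, that of Ptgds, where 1.98% of all probes tested were called, and nothing is read from this since Ptgds was chosen for it. The genotypes did not overlap in that 1 probe, where 10.0% of all probes did so, 5.47% with the mutants higher and 4.57% with them lower. Without Ptgds the log2 changes lay between -0.14 and 0.29, and with it the median of the 9 was 0.03.

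In liver, 4 of the 8 genes could be tested. With limma 0 of the 4 passed the threshold, where 0.101% of all liver probes passed (0.0677% higher and 0.0338% lower in mutants). At an unadjusted limma p below 0.05 the count was also 0 of the 4, where 1351 of 11823 liver probes had such a p. The Ptges3 intensity was 261.1, 325.3 and 304.7 in mutant livers, against 269.6, 265.3, 263.1 and 256.8 in wild-type livers. Mutant livers 2 and 3 lay above all wild types and mutant liver 1 within their range. Its log2 change was 0.25 ± 0.14 (SE, n = 3 mutant and 4 wild type, limma adjusted p = 0.538), with a 95% interval of -0.05 to 0.54. Hpgd, well above background in liver, was 616.3, 557.4 and 490.8 in mutant livers, against 611.2, 420.7, 424.4 and 598.7 in wild-type livers. The wild-type livers fell into a high and a low pair, mutant liver 1 lay just above the high pair and the other mutants between the pairs, and the log2 change was 0.16 ± 0.19 (limma adjusted p = 0.814, 95% interval -0.26 to 0.58).

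The remaining 2 were dim in liver. Ptges2 was 130.2, 130 and 139.6 in mutant livers, against 135.2, 127.8, 129.1 and 135.2 in wild-type livers, with a log2 change of 0.05 ± 0.14 (limma adjusted p = 0.935, 95% interval -0.26 to 0.36). Ptgis was 111.1, 124.2 and 123.9 in mutant livers, against 119.7, 120.2, 115.3 and 117.3 in wild-type livers, with a log2 change of 0.09 ± 0.18 (limma adjusted p = 0.900, 95% interval -0.30 to 0.48). Mutant liver 1 was the only array with Ptgis at background. Ptges was above background on 1 liver array with 1 probe and on 0 with the other. In 0 of the 4 genes did the genotypes separate, where 11.2% of all liver probes did (5.44% with the mutants higher and 5.79% with them lower). Whether heart and liver changes differ was not tested, because the tissues were scaled separately.

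**Figure D3:**
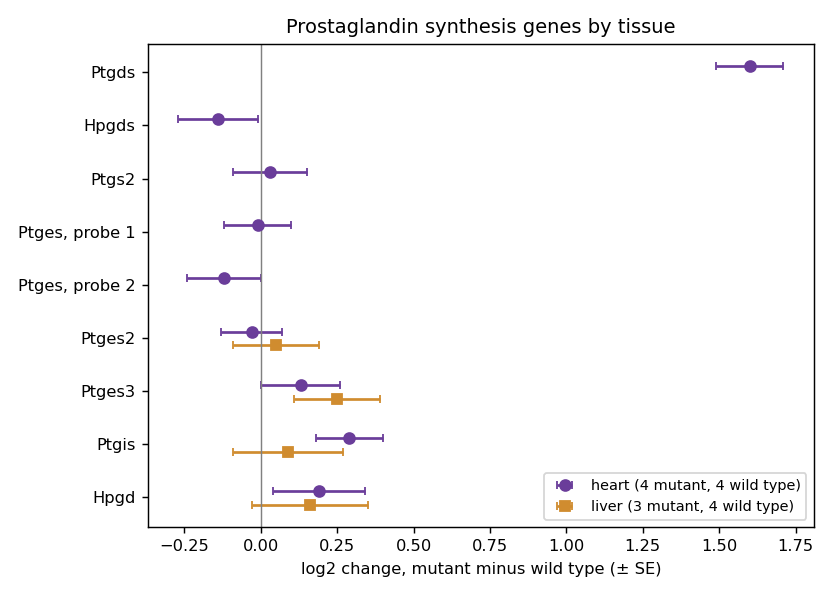
Log2 change, mutant minus wild type, with SE, of each tested probe of the set in heart (circles) and liver (squares). Ptgds in heart stands at 1.60, and all other points lie between -0.14 and 0.29.

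Around these enzymes, 67 further genes of the pathway and of related families had a probe, of which 51 could be tested in heart and 36 in liver. In heart 2 of 62 probes rose and 0 fell, where 1.15% of all probes rose and 0.837% fell, and the median log2 change of the 62 was -0.02. Those 2 were Pla2g12a and Tbxa2r. In liver 0 of 41 probes passed limma's threshold (5 at an unadjusted p below 0.05), with a lowest adjusted p of 0.183.

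Upstream of the cyclooxygenases, 1 phospholipase rose in the mutant hearts. Pla2g12a encodes a secreted phospholipase A2. Its brighter probe was 1585.3, 1445.3, 1664.9 and 1838.3 in mutant hearts, against 1097.7, 1162.6, 1050.7 and 1151.9 in wild-type hearts. The groups are well apart, and the log2 change was 0.54 ± 0.10 (SE, n = 4 each, limma adjusted p = 0.0173). A second Pla2g12a probe stood at -0.07 ± 0.13, but it was just above background. It read 3.2 to 8 in mutant hearts and 3.8 to 13.7 in wild-type hearts. At that level it cannot settle the matter, so the rise rests on 1 probe. The call is lost without wild-type heart 1 (adjusted p = 0.0521), wild-type heart 3 (0.0585) or mutant heart 3 (0.0547). In liver Pla2g12a stood at 0.04 ± 0.18 (limma adjusted p = 0.962). The other lipases nearest to the threshold in heart had negative values, with Pla2g5 at -0.29, 1 of 3 probes of the monoglyceride lipase Mgll at -0.36 and Pla2g4b at -0.32 (limma adjusted p = 0.187, 0.204 and 0.240), and Pla2g4a, the classical cytosolic enzyme, was too dim to be tested in either tissue. In liver, the 3 Mgll probes stood at 0.45, 0.28 and 0.10 (limma adjusted p = 0.356, 0.491 and 0.815), and the Daglb probes at -0.32 for the dimmer and -0.07 for the brighter (0.460 and 0.899). Pla2g6 stood at -0.21 and Dagla at -0.14 in liver (limma adjusted p = 0.820 and 0.839).

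Among the receptors, that of thromboxane, Tbxa2r, which contracts vessels and activates platelets, rose in the mutant hearts. The probe that passed was 23.7, 20.2, 21.6 and 23.3 in mutant hearts, against 12.3, 11.9, 14.3 and 6.1 in wild-type hearts. The groups do not overlap, and the log2 change was 0.46 ± 0.11 (SE, n = 4 each, limma adjusted p = 0.0464). Its second probe gave the same size of change, 0.46 ± 0.13, short of the threshold (limma adjusted p = 0.0892), with 26.1 to 39.4 in mutant hearts and 13 to 27.1 in wild-type hearts. The call was narrow: it is lost when any 1 of the 8 hearts is left out (adjusted p = 0.0625 to 0.116). The prostacyclin receptor Ptgir stood at 0.18 ± 0.10, the prostaglandin F receptor Ptgfr at 0.08 ± 0.14 and the prostaglandin E receptor Ptger3 at -0.08 ± 0.17 (limma adjusted p = 0.449, 0.843 and 0.878). The receptors of prostaglandin D, Ptgdr and Ptgdr2, were too dim to be tested in either tissue, as were Ptger2 and Ptger4. In liver Ptgir and Tbxa2r stood at -0.12 and -0.10 (limma adjusted p = 0.806 and 0.884).

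Markers of platelets, which carry the thromboxane receptor, had negative changes in 7 of 7 genes tested in heart, with a median of -0.51, and 0 of 9 probes passed limma's threshold (4 at an unadjusted p below 0.05). Their summed level was 431.7 to 1533.2 in mutant hearts and 979.3 to 1562.4 in wild-type hearts. Of the endothelial markers 8 of 8 genes had positive changes with a median of 0.23, and 0 of 11 probes passed (5 at an unadjusted p below 0.05). Their summed level was 9117.9 to 10463.9 in mutant hearts and 7875.4 to 8540.3 in wild-type hearts, without overlap. Smooth-muscle markers summed to 15347.3 to 18732.1 in mutant hearts and 14434.6 to 15299 in wild-type hearts, also without overlap, with 4 of 6 genes positive and 0 of 11 probes past limma's threshold (3 at an unadjusted p below 0.05). The brightest probes in this sum, of Acta2 and Des, both stood at 0.31. Whether Des marks smooth muscle in RNA of the whole heart was not tested, so the sum is not a measure of smooth muscle alone. The probes of Smtn stood at -0.25, -0.24 and -0.11 and that of Myh11 at -0.10. The part of these cell types in the Ptgds, Ptgis and Tbxa2r values was not tested.

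Of the other synthases and of transport and breakdown, 0 of 14 probes passed in heart (4 at an unadjusted p below 0.05). Thromboxane synthase, Tbxas1, stood at 0.43 ± 0.18 by 1 probe and at 0.07 ± 0.14 by the other (limma adjusted p = 0.263 and 0.851). Akr1b8, an aldo-keto reductase, stood at 0.44, Prxl2b, a prostamide and prostaglandin F synthase, at -0.12, and the carbonyl reductase Cbr1 at -0.05 (limma adjusted p = 0.187, 0.643 and 0.851). Zadh2, the prostaglandin reductase also called Ptgr3, came closest. It was 575.8, 606.1, 594.1 and 606.6 in mutant hearts, against 891.2, 746.8, 970.5 and 719.9 in wild-type hearts, without overlap, a log2 change of -0.46 ± 0.11 (limma adjusted p = 0.0545). Ptgr2 stood at 0.23, the transporter Slco2a1 at 0.31 and 1 of 3 Slco3a1 probes at -0.28 (limma adjusted p = 0.293, 0.427 and 0.361). In liver, Prxl2b stood at 0.32, Akr1b8 at 0.25, Tbxas1 at 0.23, Cbr1 at 0.19, Zadh2 at 0.16, Slco2a1 at 0.14, Slco3a1 at 0.10 and Ptgr2 at 0.00, with limma adjusted p between 0.426 and 0.999.

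The lipoxygenase branch, which turns the same acid into leukotrienes, held 11 probes in heart, of which 0 passed (2 at an unadjusted p below 0.05). Alox12, the platelet-type enzyme, stood at -0.58 ± 0.20, Alox15 at -0.21, the epoxide hydrolase Ephx2 at -0.20 and Alox5 at 0.33 (limma adjusted p = 0.170, 0.254, 0.439 and 0.553). In liver Alox12b and Lta4h both stood at 0.19, Ephx2 at 0.12 and Alox12 at -0.10 (limma adjusted p = 0.643, 0.656, 0.840 and 0.893). Of the membrane family that holds Ptges, Mgst1 stood at 0.54 and Mgst3 at -0.19 and -0.17 in heart (limma adjusted p = 0.185, 0.366 and 0.389), Ltc4s at 0.15 and Alox5ap at -0.03 (0.558 and 0.935). Liver Mgst3 stood at 0.43 and 0.57, Mgst1 at 0.12 and -0.03, Mgst2 at -0.06 and Alox5ap at 0.01 (limma adjusted p between 0.251 and 0.991).

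Of the other lipocalins, the protein family of Ptgds, none passed the test. In heart 0 of 12 probes passed (2 at an unadjusted p below 0.05) and the median change was -0.04, with Apod at -0.51 ± 0.19, C8g at -0.25, Lcn10 at -0.10 and Lcn5 at -0.11 (limma adjusted p = 0.209, 0.253, 0.641 and 0.670). In liver 10 of 11 lipocalin genes had negative changes and 0 passed (1 at an unadjusted p below 0.05). The direction was not particular to lipocalins, since 5 of 6 hepatocyte marker genes tested in liver also had negative changes, with 0 passing. Apom, a carrier of sphingosine 1-phosphate in plasma, was 1340.8, 1071.7 and 919.3 in mutant livers, against 1854, 2323.8, 1848.5 and 1371 in wild-type livers, without overlap. Its log2 change was -0.78 ± 0.20 (limma adjusted p = 0.183). Obp2a stood at -0.71, Lcn2 at -0.34 and Lcn12 at 0.20 (limma adjusted p = 0.492, 0.562 and 0.720).

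**Figure D4:**
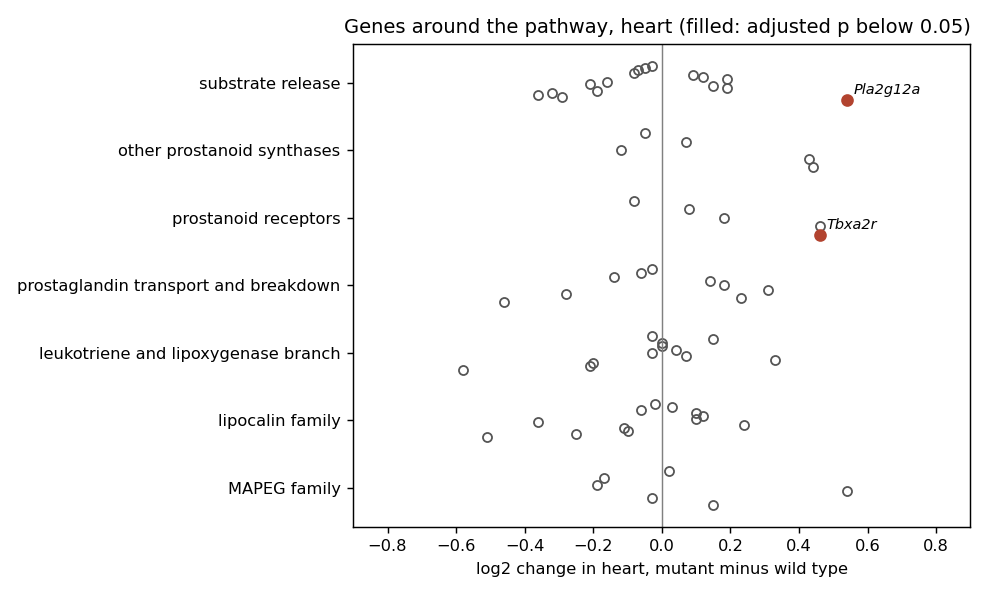
Log2 change in heart, mutant minus wild type, of every tested probe of the 7 lists around the set (points, 1 row per list, filled where the limma adjusted p is below 0.05). The filled points are Pla2g12a at 0.54 and Tbxa2r at 0.46.

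Of the chromosome neighbours of Ptgds, 1 rose in the mutant hearts. Taking the 5 nearest genes with a probe on each side in RefSeq order, 9 of the 10 could be tested in heart, and 1 of 9 probes passed, where 1.98% of all probes passed. It was Paxx, a factor of DNA end joining separated from Ptgds by 1 annotated gene with the probed Clic3 between them. Paxx was 57.2, 58.6, 82.2 and 74.7 in mutant hearts, against 33.5, 28.5, 32.6 and 35.6 in wild-type hearts. The groups do not overlap, and its log2 change was 0.76 ± 0.11 (SE, n = 4 each, limma adjusted p = 0.00534). The adjacent Clic3 stood at 0.04 ± 0.16, Npdc1 at 0.19, Fut7 at -0.07, Abca2 at -0.12, C8g at -0.25, Fbxw5 at 0.09, Traf2 at 0.30 and Edf1 at 0.00, with limma adjusted p between 0.253 and 0.998. In liver 7 of the 10 could be tested and 0 passed, with a lowest limma adjusted p of 0.397, and Paxx stood at 0.12 ± 0.18. Paxx was 165.8, 153.8 and 185.3 in mutant livers, against 176.5, 166.7, 154.6 and 150 in wild-type livers, which overlap.

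**Figure D5:**
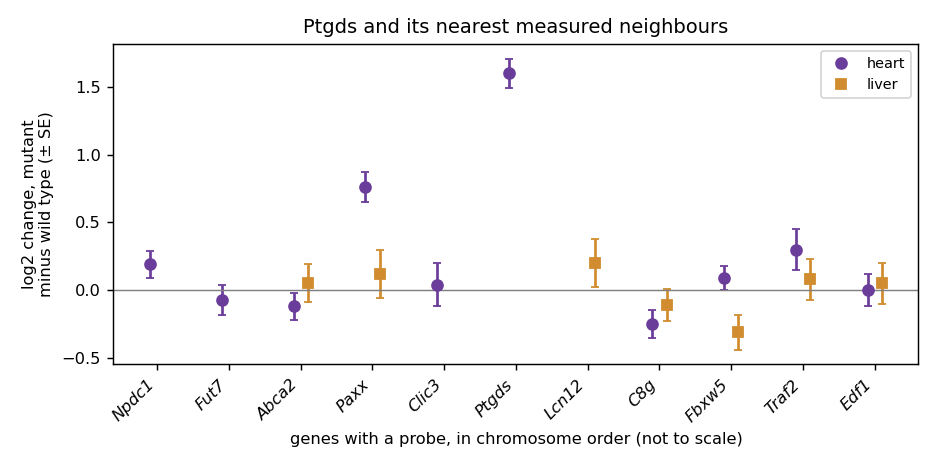
Log2 change, mutant minus wild type, with SE, of Ptgds and of its 5 nearest probed genes on each side, in chromosome order without scale, in heart (circles) and liver (squares). Paxx stands at 0.76 in heart, below Ptgds at 1.60, while the other neighbours lie between -0.25 and 0.30 in heart.

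The profile of Ptgds over the 8 hearts was most closely followed by Slc41a3, of a family of magnesium transporters. Likeness was the root mean square difference of log2 values after each probe was centred on its own mean, which was 0.124 for Slc41a3 and 0.824 for the median probe. Slc41a3 was 106 to 151.9 in mutant hearts and 35 to 39.9 in wild-type hearts. Its other probes read 172.6 to 294.9 and 30.9 to 45.2 in mutant hearts, against 76.3 to 110.3 and 4.5 to 6 in wild-type hearts, so all 3 separated the genotypes. Next came Creb3l2, a transcription factor of the secretory pathway (0.230), Psmb1, a proteasome subunit (0.241), 2210407C18Rik (0.264) and Ccdc68 (0.283). Like Ptgds, all 5 were higher in the 4 mutant hearts without overlap, with log2 changes of 1.21 to 1.49, and the measure favours genes with a genotype difference of this size.

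Levels of Ptgds are known from several cell types, and their markers were read beside it. Of 5 melanocyte genes tested in heart, 3 had positive changes and 0 of 6 probes passed (1 at an unadjusted p below 0.05). The pigment enzyme Dct was 42.4, 62.1, 13.8 and 25.4 in mutant hearts, against 16.9, 8.5, 3.8 and 0.3 in wild-type hearts, with a log2 change of 1.02 ± 0.26 (limma adjusted p = 0.0667). Mutant heart 3, the lowest mutant for Dct, overlapped the wild types. Of the other genes, Mlana stood at 0.26 and Tyrp1 at 0.11, whereas Mitf stood at -0.23 and the Pmel probes at -0.16 and -0.04. In liver, on its separate scale, the Dct probe read 209 to 372.6 in mutants and 324.2 to 359.6 in wild types. Its log2 change there was -0.29 ± 0.26 (limma adjusted p = 0.731). The summed level of the list was 114.2 to 205.2 in mutant hearts and 102.3 to 128.9 in wild-type hearts, with Oca2 too dim to be tested. Whether the Dct probe marks melanocytes in these tissues was not tested, nor was the part of these cells in the Ptgds difference.

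Fibroblast markers summed to 7953.6 to 8651.4 in mutant hearts and 8738.1 to 10861 in wild-type hearts, lower without overlap. Most of this sum was Dcn, with probes at -0.34 and -0.27, whereas 5 of the 8 genes had positive changes and the median was 0.09. Upward, 2 of 10 probes passed, where 1.15% of all heart probes did. They were Col3a1 (0.81 ± 0.14, limma adjusted p = 0.0131) and Col1a1 (0.74 ± 0.13, limma adjusted p = 0.0141). A second Col3a1 probe stood at 0.21 ± 0.19, and the Col1a1 call is lost without mutant heart 3 (adjusted p = 0.0507). With a floor of 16 in place of normexp and offset, both calls are lost (adjusted p = 0.0692 for Col3a1 and 0.0897 for Col1a1). Of 7 mesothelial and epicardial genes 5 had positive changes, and 1 of 9 probes passed, that of Upk1b. It rose by 0.77 ± 0.18 (limma adjusted p = 0.0463), with summed levels of the list of 697.1 to 1454.5 in mutant hearts and 834.9 to 1224.4 in wild-type hearts. The Upk1b call is lost without any of 6 of the hearts, wild-type 1, 3 and 4 and mutant 1, 3 and 4 (adjusted p = 0.0819 to 0.123). Macrophage markers were positive in 7 of 7 genes, and 1 of 10 probes passed. That was 1 of 2 Lyz2 probes (0.77 ± 0.16, limma adjusted p = 0.0274, the other at 0.06 ± 0.13). The list summed to 2897.8 to 3154.5 in mutant hearts and 2348 to 3300.1 in wild-type hearts. The Lyz2 call is lost without any of wild-type hearts 1, 3 and 4 or mutant hearts 1, 2 and 4 (adjusted p = 0.0590 to 0.0830). Atrial markers summed to 35860.1 to 63646.9 in mutant hearts and 48066.1 to 64713.8 in wild-type hearts, and white-fat markers to 40.2 to 764.7 in mutant hearts and 55.7 to 870.4 in wild-type hearts, each with 0 probes past limma's threshold (1 and 1 at an unadjusted p below 0.05). Retn and Fabp4 were too dim to be tested. Brown-fat markers summed to 12910.5 to 16408 in mutant hearts and 12250.3 to 14599.4 in wild-type hearts, and nerve and Schwann cell markers to 586.8 to 724.4 in mutant hearts and 648 to 757.9 in wild-type hearts, with 0 probes of either list past limma's threshold (0 and 2 at an unadjusted p below 0.05). Most of the brown-fat sum was Cox8b, at 12347.6 to 15067.3 in mutant hearts and 11521.2 to 13661 in wild-type hearts. Whether Cox8b marks brown fat in RNA of the whole heart was not tested, so the sum is not a brown-fat level. Ucp1 read only 0.6 to 453.5 in mutant hearts and 3.5 to 402.9 in wild-type hearts. The part of these cell types in the Ptgds difference was not tested.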

How the data were processed

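RNA of 8 hearts and 7 livers was measured, and the values used were the deposited linear intensities per probe. Per the submitters' processing notes GenomeStudio 2011.1 was used, and the normalization is not given in the sources used here. A second table of 15 non-normalized sample columns was not used, because their names match no sample label. Here each array's background was taken as the mode of its low values with the SD below it, corrected with normexp (limma 3.58.1, R 4.3.3), an offset of 16 was added and log2 taken. Genotypes were compared within each tissue with lmFit and eBayes, Benjamini-Hochberg adjusted over all probes tested, threshold 0.05, after a check on simulated data. Separate animals made up each group, and the number of arrays limits the precision. Probe names come from the platform annotation (23978 of 25697 probes had 1 symbol, 1719 were not listed). Gene lists used the brightest probe per gene for signs and medians, and sums of intensity over background. All probes of the set, up to 4 genes with the smallest p per pathway list and tissue, the 5 genes most like Ptgds and the 5 nearest probed genes on each side of it are named, and markers that passed were named after their values were seen. The members and lists were chosen with earlier results of these data known.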

Additional observations from a re-analysis of the deposited data

Results flagged for a closer look

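In 10 of 127 groups of 4 arrays checked, the highest or lowest array stood apart from the other 3, and chance alone gives about 1 in 20. In the set itself, Ptges2 was 132.1 in wild-type heart 1, against 110.7 to 111.3 in the other wild-type hearts. Mutant heart 3 stood apart in single probes of 3 genes around the pathway: Alox12 at 117.2 (other mutant hearts 219.1 to 241.9), Mgst3 at 1973.2 (1632.9 to 1661.4) and Slco3a1 at 381.5 (275.4 to 288.4). Mgll was 723.3 in mutant heart 4 (578.7 to 597.5 in the other mutant hearts), and Pla2g5 was 46.3 in wild-type heart 3 (32.8 to 33.6 in the other wild-type hearts). In wild-type liver 2, Mgst3 was 146.1 (166.3 to 169.2 in the other wild-type livers), Mgst2 was 120.9 (117.6 to 118) and Mgll was 348.2 (371.7 to 375.6). Cbr1 was 242.3 in wild-type liver 1 (187.6 to 195.2 in the other wild-type livers). Each value is that of a single probe, and the other probes of Mgst3, Slco3a1 and Mgll were not among the 10 groups.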

How the results depend on the processing

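The Ptgds change in heart lay between 1.51 (offset of 50) and 1.66 under all 16 alternatives, 1.53 to 1.66 when single hearts were left out. The other heart changes of the set moved by less than the spread between hearts in every alternative that could be run. Some changed sign near 0 when single hearts were left out: Ptgs2 (-0.04 to 0.12), Ptges2 (-0.07 to 0.04) and the dimmer Ptges probe (-0.10 to 0.03). The count of heart probes past the threshold moved from 367 to 153 with a floor of 16 in place of normexp and offset, 577 with an offset of 50, 604 with trend and robust settings, 585 in a single fit of all 15 arrays and 198 to 294 without single hearts. With replicate number as a replicate block, which joins different mice whose deviations correlated at -0.106 to 0.015, it was 237, and Pla2g12a (adjusted p = 0.0529), Tbxa2r (0.103) and Upk1b (0.0890) lost their calls. Tbxa2r also lost it without a filter on dim probes (0.0604), with trend and robust settings (0.0640) and in the single fit (0.0768). Upk1b lost it with the floor (0.179), an offset of 50 (0.0568) and no filter (0.117), Lyz2 with the floor (0.138) and no filter (0.0797), and Col3a1 and Col1a1 with the floor (0.0692 and 0.0897). Paxx and Mcpt4 kept their calls under all 16. The liver count moved from 12 to 3 with the floor, 0 without the filter, 36 with trend and robust settings, 156 in the single fit, 31 with the replicate block and 2 to 49 without single livers. None of the 4 liver genes of the set passed in any alternative, and 2 changed sign near 0: Ptges2 at 0 without wild-type liver 2 and -0.06 without mutant liver 3 (range without single livers -0.06 to 0.11), and Ptgis at -0.03 without mutant liver 2 and -0.02 without mutant liver 3 (range -0.03 to 0.32). The cause of these moves was not tested. Ptgds has 1 probe, so no other probe could be tried. Dim probes, among them Hpgds, Ptgs2 and Ptges, rest on the background step.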
